A study of Homo sapiens with 6 samples.

Results

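The transcripts described here are 10 small nucleolar RNA (snoRNA) host transcripts: GAS5, SNHG1, SNHG5, SNHG6, SNHG8, SNHG12, SNHG15, SNHG16, EPB41L4A-AS1 and ZFAS1. They were taken by name from the 26850 genes to which transcript entries could be matched, with the entry holding the most reads standing for each gene. All 10 had reads in every library and all 10 were tested in every comparison.

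The data are RNA sequencing libraries of U2OS 2-6-3 cells, a clonal derivative of a human osteosarcoma line that carries a reporter array with tet operators. There were 6 libraries in 3 groups of 2, and every group was lit with white light through the night. The untransfected group received no plasmid. The mock group was transiently transfected with TetR-RFP & YFP, and the sample group with mCherry-MCP, CIBN-TetR and PHR-YFP-VP16, both with the Roche Xtreme gene reagent. Blue light brings PHR to CIBN, so that the VP16 activation domain is drawn to TetR at the array. The untransfected group lacked the reagent as well as the plasmids, so the reagent and the plasmids cannot be told apart in comparisons with it. The labels name no separate cultures, so the p-values cover the spread between these libraries, which may be technical. The share of cells that took up plasmid is not given in the sources used here. In such bulk RNA, fewer cells with a transcript and less of it per cell cannot be told apart.

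A snoRNA host gene is transcribed and spliced like a messenger RNA, and its snoRNAs are cut from the introns. The snoRNAs guide chemical changes on ribosomal and other RNAs: box C/D snoRNAs guide methylation of the ribose, and box H/ACA snoRNAs guide the conversion of uridine to pseudouridine. The spliced exons of many noncoding hosts begin with a run of pyrimidines (a 5′ terminal oligopyrimidine, or TOP, start), as ribosomal protein messenger RNAs do. Several of these spliced RNAs, GAS5 among them, are known substrates of nonsense-mediated decay, which degrades RNAs whose translation stops early. GAS5 was named for its rise in growth-arrested cells and is also known to bind the glucocorticoid receptor.

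The start regions of 7 hosts are shown because the pyrimidine start is the feature these genes are known for. Each stretch runs from 40 bases before to 20 bases from the RefSeq start (GRCh38.p14), on the transcribed strand. Capitals mark the longest pyrimidine run within 10 bases of the start and, where present, the letters TATAA upstream.
SNHG1 (chr11:62855866-62855925, minus strand): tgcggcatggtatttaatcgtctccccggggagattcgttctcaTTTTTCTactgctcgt
SNHG5 (chr6:85678714-85678773, minus strand): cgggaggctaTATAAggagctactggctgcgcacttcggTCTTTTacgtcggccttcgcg
SNHG8 (chr4:118278722-118278781, plus strand): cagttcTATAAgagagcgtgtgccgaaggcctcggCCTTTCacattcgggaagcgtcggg
SNHG12 (chr1:28581854-28581913, minus strand): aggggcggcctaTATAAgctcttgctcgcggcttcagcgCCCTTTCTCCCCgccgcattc
SNHG16 (chr17:76557724-76557783, plus strand): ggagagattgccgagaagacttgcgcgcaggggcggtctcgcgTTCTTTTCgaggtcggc
EPB41L4A-AS1 (chr5:112160486-112160545, plus strand): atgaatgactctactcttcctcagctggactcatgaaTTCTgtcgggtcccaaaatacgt
ZFAS1 (chr20:49278602-49278661, plus strand): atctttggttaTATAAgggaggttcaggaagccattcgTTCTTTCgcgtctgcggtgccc

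A pyrimidine run of at least 6 bases within 10 bases of the start was found in 6 of the 8 members in the RefSeq table, the exceptions being EPB41L4A-AS1 with 4 and GAS5 with 3. The same was true of 31.1% of 35116 RefSeq promoters. The letters TATAA, searched on the transcribed strand between 40 and 16 bases before the start, were found in SNHG5, SNHG8, SNHG12 and ZFAS1, against 3.91% of promoters. A match is a description of letters and not of a bound site. For GAS5 the RefSeq table starts 1058 bases upstream of the deposited entry, so its window, which has no TATAA, is not shown. In GENCODE 29 the GAS5 transcript opens with TTTCgaggtaggagtcgactcctgtgaggt, in which capitals mark the pyrimidines at the very start. The most abundant deposited ZFAS1 entry also starts upstream of the RefSeq start shown, and its other entry holds nearly the same reads. SNHG6 and SNHG15 are named only.

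Reads summed over transcripts ranged from 44594507 to 54177551 in 5 libraries and were 9579278 in the shallower sample library. The tables do not tell which of a pair is which labelled replicate, and below a is the deeper library of a pair and b the shallower. The sample pair differed more than the others. Over 11490 genes with a mean of at least 100 normalized reads, the SD of log2(b/a) was 0.37 in the sample pair, 0.18 in the mock pair and 0.15 in the untransfected pair. Of 9 osteoblast and mesenchymal markers 7 had a mean of at least 10, while the bone matrix gene IBSP was at 0 in every library. Summed, the untransfected pair lay between 77913 and 81308 normalized reads, the mock pair between 68441 and 74564 and the sample pair between 67679 and 87148, and single markers moved in opposite directions. RUNX2, the osteoblast transcription factor, had means of 396, 65.3 and 112 in untransfected, mock and sample cells, SPARC 32106, 20878 and 21134, and ALPL, a bone phosphatase, 62.8, 816 and 597. Summed epithelial markers lay between 910 and 1001 normalized reads without transfection, 198 and 240 after mock and 185 and 235 after sample transfection. KRT5, KRT14 and EPCAM were lower in both transfected groups, whereas CDH1 had means of 45.8, 50.6 and 49.4. Summed blood markers lay between 19.96 and 25.3, 30.6 and 36.9, and 78.2 and 129.9 in the same order, and summed endothelial markers between 131 and 148, 15.8 and 23.4, and 20.6 and 25.03. Within the blood list HBB had means of 3.11, 7.53 and 82.5, and PTPRC, which marks white blood cells, 11.5, 5.97 and 4.01. Summed neural markers lay between 6632 and 6914, 3650 and 3897, and 3999 and 4146. Their part in the results below was not tested.

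Mock transfection, which addressed what the control plasmids and reagent do to these cells, raised 8 of the 10 hosts. SNHG15, SNHG12 and SNHG1 stood 3.00, 2.48 and 2.27 times as high in mock as in untransfected cells. EPB41L4A-AS1, SNHG5, SNHG16, ZFAS1 and GAS5 stood 1.85, 1.84, 1.67, 1.43 and 1.38 times as high, and SNHG8 and SNHG6 did not pass the test. With DESeq2 in the authors' deposited table, 8 members were called higher and 0 lower at an adjusted p under 0.05. Of all genes tested in that comparison 50.9% were called, 27.5% as higher. The median log2 fold change of the members was 0.81 and that of all tested genes -0.004, both from the authors' deposited table. With limma 8 members were called on all libraries and 6 scaled by total counts, where 59.0% and 56.2% of all genes were called. Both mock libraries lay above both untransfected ones for 10 of 10 members, against 42.3% of genes with a mean of at least 10.

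Among the hosts of box C/D snoRNAs, GAS5 (chr1:173863901-173867987, minus strand) holds 11 snoRNA entries, 10 of box C/D and 1 of H/ACA. Its normalized read counts were 1632 and 1469.6 in the untransfected pair, 2364 and 1924 in the mock pair, and 2253 and 1367 in the sample pair, library a first in each pair. The mock values were above both untransfected ones, whereas sample library b was below them. The means were 1551 ± 115, 2144 ± 311 and 1810.1 ± 627 (SD, n = 2), and mock rose with a log2 fold change of 0.48 (SE 0.11, adjusted p = 2.05e-05) in the authors' deposited table. Scaled by total counts, GAS5 stood at 0.33 (limma adjusted p = 0.178), and it also missed the limma threshold without either untransfected library or without mock library a, the lowest value being 0.30 (adjusted p = 0.265).

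SNHG1 (chr11:62851988-62855888, minus strand) is a host whose snoRNAs are its best known product, and 8 snoRNA entries lie inside it. It had 1432 and 1151 normalized reads in the untransfected pair, 3275 and 2579 in the mock pair, and 3032 and 2067 in the sample pair. Every transfected library stood above every untransfected one. The means were 1292 ± 199, 2927 ± 492 and 2549.7 ± 683 (SD, n = 2). The log2 fold changes against untransfected cells were 1.15 (SE 0.22, adjusted p = 6.92e-07) for mock and 0.95 (SE 0.19, adjusted p = 2.73e-06) for sample cells in the authors' deposited tables.

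SNHG5 (chr6:85677007-85678733, minus strand), which hosts both SNORD50 snoRNAs, had 211 and 179 normalized reads in the untransfected pair, 378 and 338 in the mock pair, and 375 and 280.0 in the sample pair. Again no transfected library fell to the untransfected level. The means were 195 ± 22.4, 358 ± 28.5 and 327 ± 67.0 (SD, n = 2). It rose by a log2 fold change of 0.87 in mock (SE 0.17, adjusted p = 1.68e-06) and 0.73 in sample cells (SE 0.25, adjusted p = 0.0112) in the authors' deposited tables. Resting on sample library b alone, the second of these was 0.52 and missed the limma threshold (adjusted p = 0.109).

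SNHG16 (chr17:76557764-76565348, plus strand) hosts the SNORD1 snoRNAs. It had 5309 and 5680.2 normalized reads in the untransfected pair, 8719.5 and 9647 in the mock pair, and 8376 and 9116 in the sample pair, with a clear gap between untransfected and transfected libraries. The means were 5495 ± 263, 9183 ± 656 and 8746 ± 523 (SD, n = 2). Its log2 fold changes of 0.75 in mock (SE 0.08, adjusted p = 6.18e-22) and 0.66 in sample cells (SE 0.10, adjusted p = 3.10e-09) had the smallest errors of the 10 hosts in the authors' deposited tables.

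ZFAS1 (chr20:49278178-49289260, plus strand), known as an antisense RNA at the start of ZNFX1, hosts the SNORD12 snoRNAs. It had 1856 and 1782 normalized reads in the untransfected pair, 2586 and 2609 in the mock pair, and 2572 and 1561 in the sample pair. The 2 sample libraries were split, one at the mock level and the other below the untransfected level. The means were 1819 ± 52.2, 2597 ± 16.1 and 2066 ± 715 (SD, n = 2). ZFAS1 rose in mock cells with a log2 fold change of 0.53 (SE 0.08, adjusted p = 4.38e-10) in the authors' deposited table. With limma it passed with all libraries (0.50, adjusted p = 0.0163), and it missed the threshold scaled by total counts (0.37, adjusted p = 0.0688) and without any 1 of the 4 untransfected and mock libraries (adjusted p = 0.0581 to 0.0808). Strand use in the counting is not given in the sources used here, so reads shared with the opposite strand were not tested.

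SNHG6 (chr8:66921930-66925542, minus strand), the host of SNORD87, had 1372 and 1460.3 normalized reads in the untransfected pair, 1492 and 1526 in the mock pair, and 1450.4 and 1075 in the sample pair. The mock values lay just above the untransfected ones. The log2 fold changes were 0.11 (SE 0.09, adjusted p = 0.331) for mock and -0.14 (SE 0.17, adjusted p = 0.544) for sample cells in the authors' deposited tables, and scaled by total counts the mock value was -0.05.

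**Figure D1:**
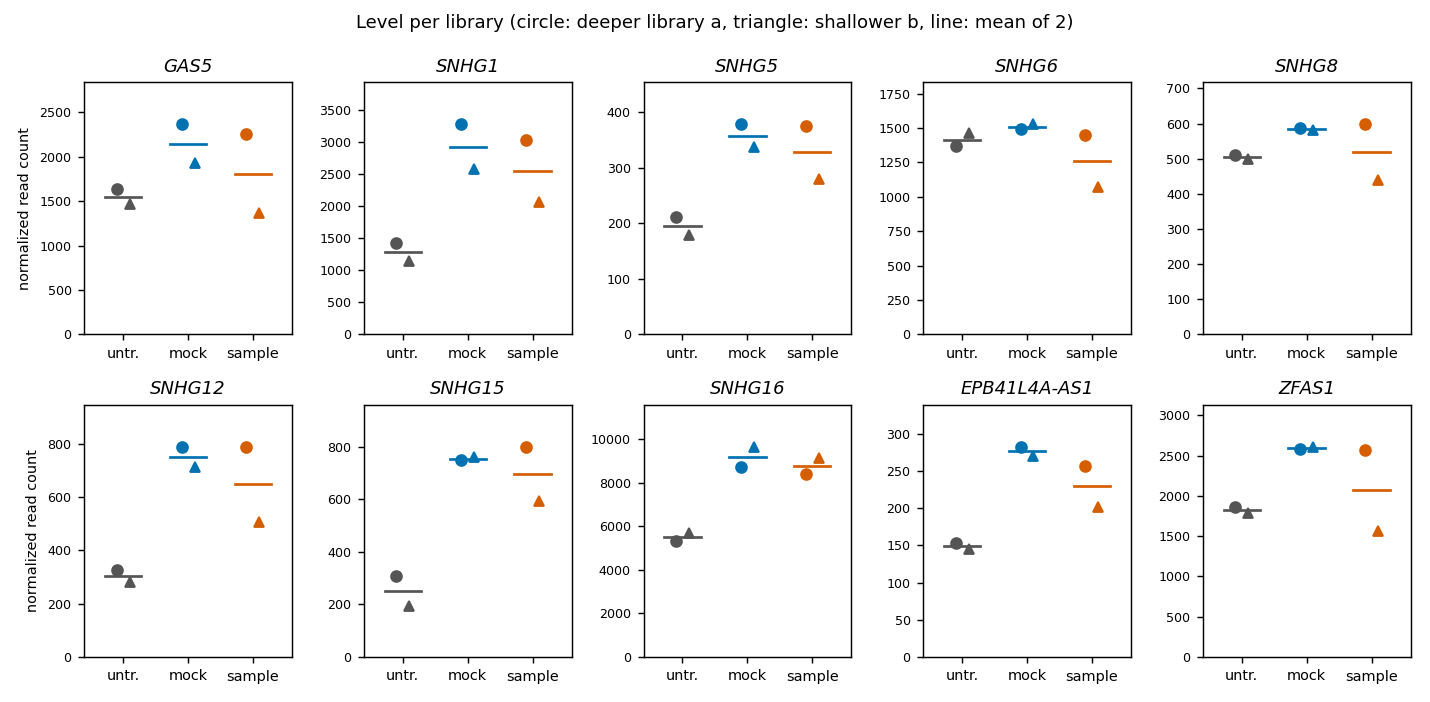
Normalized read count (y axis, from 0) of each host in the untransfected (untr.), mock and sample groups. Circles are the deeper library of a pair, triangles the shallower, and lines the mean of 2; the mock points lie above the untransfected ones in every panel, while the sample triangle falls below the circle in all panels but that of SNHG16.

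Hosts with an H/ACA entry held the 2 largest ratios of mock to untransfected means, SNHG15 (3.00) and SNHG12 (2.48). EPB41L4A-AS1 (1.85), GAS5 (1.38) and SNHG8 (1.16, not called) also carry such an entry. SNHG15 (chr7:44983028-44986660, minus strand), the host of SNORA9 and known as a short-lived RNA, had 309 and 193 normalized reads in the untransfected pair, 749 and 759.5 in the mock pair, and 800.3 and 593 in the sample pair. The lowest transfected library stood well above the highest untransfected one, although the untransfected pair itself was spread. The means were 251 ± 82.1, 755 ± 7.09 and 697 ± 147 (SD, n = 2). It rose by 1.56 on the log2 scale in mock (SE 0.17, adjusted p = 1.91e-18) and by 1.39 in sample cells (SE 0.25, adjusted p = 2.70e-07) in the authors' deposited tables.

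SNHG12 (chr1:28578538-28581854, minus strand) holds 3 H/ACA and 1 box C/D snoRNA entries. It had 326 and 280.1 normalized reads in the untransfected pair, 788 and 714 in the mock pair, and 790.2 and 506 in the sample pair. Transfected and untransfected libraries did not overlap. The means were 303 ± 32.6, 751 ± 52.1 and 648 ± 201 (SD, n = 2), and the log2 fold changes were 1.30 (SE 0.14, adjusted p = 1.38e-20) for mock and 1.06 (SE 0.23, adjusted p = 3.33e-05) for sample cells in the authors' deposited tables.

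EPB41L4A-AS1 (chr5:112160526-112162501, plus strand), an antisense-named transcript that hosts SNORA13, had 154 and 145 normalized reads in the untransfected pair, 283 and 271 in the mock pair, and 257 and 202 in the sample pair. The 3 groups did not overlap, with mock highest. The means were 149 ± 6.58, 277 ± 8.57 and 229.6 ± 39.3 (SD, n = 2). It rose in mock cells (0.88, SE 0.18, adjusted p = 6.95e-06), and in sample cells it stood at 0.60 (SE 0.26, adjusted p = 0.0593), as log2 values of the authors' deposited tables. The latter passed with limma on all libraries (0.70, adjusted p = 0.00477) and missed the threshold without sample library a (0.43, adjusted p = 0.192).

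SNHG8 (chr4:118278762-118279823, plus strand), the host of SNORA24, had 511 and 499 normalized reads in the untransfected pair, 589 and 581 in the mock pair, and 598 and 441 in the sample pair. Its mock libraries were close together and above the untransfected pair by a small margin. The log2 fold changes were 0.23 (SE 0.12, adjusted p = 0.12) for mock and 0.07 (SE 0.20, adjusted p = 0.837) for sample cells in the authors' deposited tables.

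Sample transfection against untransfected cells, which addressed the effect of the light-controlled plasmids and reagent, raised 5 hosts: SNHG15, SNHG12, SNHG1, SNHG5 and SNHG16. They stood 2.77, 2.14, 1.97, 1.68 and 1.59 times as high as in untransfected cells. With DESeq2 in the authors' deposited table, 5 of 10 members were called higher and 0 lower, where 37.3% of all genes tested were called, 20.2% as higher. The median log2 fold change was 0.63 for the members and -0.003 for all tested genes, from the authors' deposited table. Both sample libraries lay above both untransfected ones for 6 members, against 37.6% of genes, and GAS5, SNHG6, SNHG8 and ZFAS1 overlapped.

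With limma 6 members were called on all libraries and 6 scaled by total counts, where 50.6% and 47.2% of all genes were called. The count for sample cells turned on which library stood for them. Without sample library b, limma called 8 members higher, where 53.8% of all genes were called. GAS5 was then at 0.54 (limma adjusted p = 0.00149) and ZFAS1 at 0.50 (limma adjusted p = 0.000191) on the log2 scale. Without sample library a, limma called 4 members higher and SNHG6 lower (-0.41, adjusted p = 0.0243), where 42.5% of genes were called. With 1 library left in a group, the fit assumes that it varies as the other groups do.

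**Figure D2:**
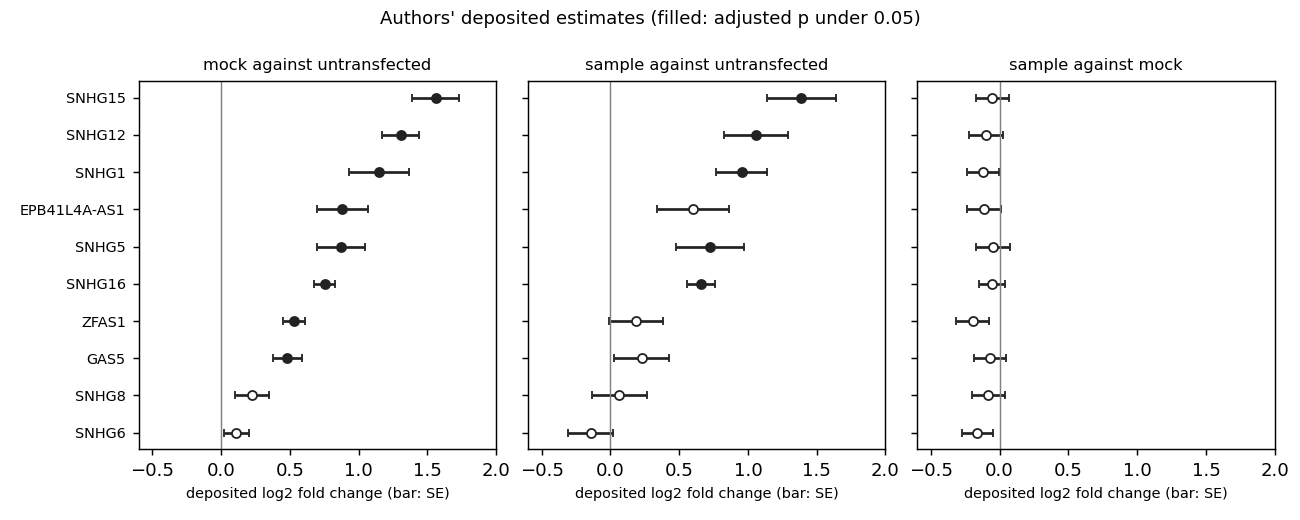
Log2 fold changes (x axis) of the 10 hosts in the authors' deposited tables, 1 panel per comparison; bars are the SE, and filled points passed an adjusted p under 0.05. Filled points number 8, 5 and 0 from left to right, and every point of the right panel lies below 0.

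Sample against mock cells, which addressed what the light-controlled plasmids add to transfection, called none of the 10 hosts. The sample means were 0.80 (ZFAS1) to 0.95 (SNHG16) of the mock means. The log2 fold changes ran from -0.20 for ZFAS1 to -0.05 for SNHG5 with an adjusted p of 1.00 each with DESeq2 in the authors' deposited table, where 0.0654% of all genes were called. Deposited fold changes are shrunk toward 0, and the unshrunk limma estimates ran from -0.24 (ZFAS1, SE 0.16) to -0.02 (SNHG15, SE 0.18), so differences of this size could not be resolved with 2 libraries a group. With limma on all libraries, and scaled by total counts, 0 members were called and 0.0% of all genes. Both sample libraries lay below both mock ones for SNHG6, EPB41L4A-AS1 and ZFAS1, against 19.1% of genes. Resting on sample library b alone, limma called GAS5 (-0.64), SNHG6 (-0.49) and ZFAS1 (-0.73) lower. In that fit 5.65% of all genes were called in either direction, most of them higher, unlike these hosts.

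The 2 sample libraries differed in these hosts. Library b was below library a for 9 of 10, with a median log2(b/a) of -0.44, while of all 11490 genes 6096 were below, with a median of -0.02. GAS5 and ZFAS1 were both at -0.72, SNHG12 at -0.64 and SNHG1 at -0.55, which placed them at percentiles 1.29, 1.30, 1.94 and 3.05 of all genes. SNHG16 was the exception at 0.12. In the mock pair 6 of 10 hosts were lower in b with a median of -0.04, and in the untransfected pair 8 of 10 with a median of -0.12. Protein-coding snoRNA hosts were also mostly lower in sample library b, 19 of 24, with a median of -0.12. Other noncoding snoRNA hosts had 9 of 14 lower and a median of -0.15, coding targets of nonsense-mediated decay a median of -0.22, and ribosomal protein genes a median of -0.07. Sample library b held 9579278 reads, beside 50105854 in its partner, and the part of depth in the difference was not tested.

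**Figure D3:**
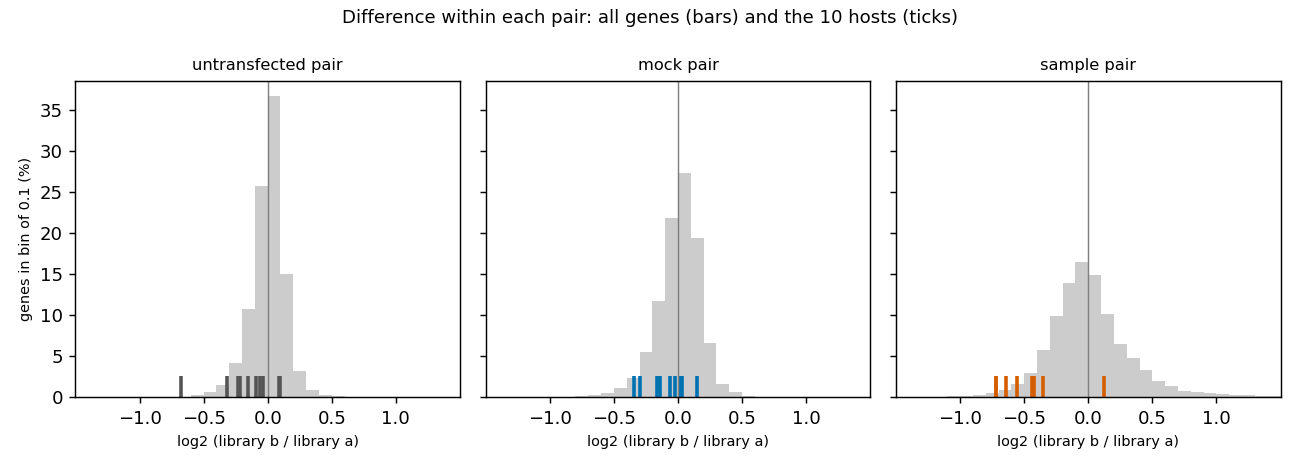
Log2 ratio of library b to library a (x axis) in each group; grey bars give the percentage of 11490 genes per bin of 0.1 and coloured ticks the 10 hosts. In the sample pair 9 ticks lie left of 0, around a median of -0.44, in the tail of a distribution centred near 0.

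Most of the snoRNA entries nested in these hosts also rose in mock cells. The hosts held 35 entries, 28 of box C/D and 7 of H/ACA, of which 34 were tested. With DESeq2 in the authors' deposited table, 22 of these were called higher and 0 lower in mock against untransfected cells. Of 213 tested snoRNA entries elsewhere in the genome 11.7% were called, 24 higher (11.3%) and 1 lower. The entries elsewhere had fewer reads, with a median mean signal of 39.6 beside 84.8 inside the hosts. The shares called were therefore not taken at like read counts. The median log2 fold change was 0.79 inside the hosts and 0.15 elsewhere in the authors' deposited table. By class 19 of 27 tested box C/D and 3 of 7 H/ACA entries were called higher. Elsewhere 16 of 122 box C/D entries were called higher and 0 lower, and 8 of 91 H/ACA entries higher and 1 lower. The median log2 fold changes inside and elsewhere were 0.82 and 0.40 for box C/D and 0.65 and 0.04 for H/ACA entries. Median mean signals were 82.7 and 21.3 for box C/D and 154 and 115 for H/ACA entries. The 2 sets thus differed in class as well as in reads. These entries lie inside unspliced host RNA, so reads of a snoRNA and of its host's intron cannot be told apart, and entries of 1 host are not independent.

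A snoRNA of each class is shown for what the hosts carry, each printed 5′ to 3′ as DNA letters from GENCODE 29. In SNORD26 of SNHG1 capitals mark the D box near the 3′ end, and in SNORA13 of EPB41L4A-AS1 they mark the ACA box, 3 bases before the end.
SNORD26: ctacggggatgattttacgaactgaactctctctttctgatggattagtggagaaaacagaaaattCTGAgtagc
SNORA13: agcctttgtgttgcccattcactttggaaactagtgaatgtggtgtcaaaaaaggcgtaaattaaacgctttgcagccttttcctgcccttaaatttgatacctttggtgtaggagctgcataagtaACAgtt

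SNORD26 had 74.1 and 99.1 normalized reads in the untransfected pair, 157 and 166 in the mock pair, and 145 and 111 in the sample pair, and rose in mock cells (log2 0.87, adjusted p = 0.000857 in the authors' deposited table). SNORA13 had 12.3 and 13.5, 26.9 and 31.5, and 26.6 and 20.6 in the same order, with a log2 fold change of 0.92 in mock cells that missed the threshold (adjusted p = 0.0731 in the authors' deposited table). SNORD74 in GAS5 had the largest log2 fold change of the nested entries in the authors' deposited table, in which entries with few reads are shrunk most. By the ratio of mock to untransfected means SNORD87, SNORD75, SNORD1B and SNORD1A, all with fewer reads, stood higher than SNORD74. SNORD74 had 72.8 and 80.5 normalized reads in the untransfected pair, 191 and 190.1 in the mock pair, and 181 and 239 in the sample pair. Its log2 fold changes were 1.27 for mock and 1.28 for sample cells in the authors' deposited tables. Of the 35 entries SNORD22 in SNHG1 had the lowest value, -0.31 (adjusted p = 0.251) in mock cells in the authors' deposited table.

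The ratios of host and nested entries were not alike in size. Summed over each host, the nested entries stood 1.92 times as high in mock as in untransfected cells in GAS5, where the host stood 1.38 times as high. For SNHG6 the ratios were 2.56 for SNORD87 and 1.07 for the host, and for SNHG16 2.50 and 1.67. In SNHG15, SNHG12 and SNHG1 the order was the other way, with nested ratios of 1.59, 1.45 and 1.40 beside host ratios of 3.00, 2.48 and 2.27. The SNHG1 sum, with means of 586 in untransfected and 819 in mock cells, included SNORD22 with 274 and 216. Of 8 tested entries in SNHG1, 6 were called higher in mock cells (median log2 fold change 0.83 in the authors' deposited table). Nested entries were also above the host in EPB41L4A-AS1 (2.26 and 1.85), SNHG5 (2.07 and 1.84) and ZFAS1 (1.70 and 1.43), which makes 6 of 10 hosts, and SNHG8 had 1.13 and 1.16. Several of these sums rested on few reads. SNORD87 had 13.0 and 11.4 in untransfected and 29.1 and 33.4 in mock libraries, and the entries of SNHG16 had 13.6 and 15.7, and 32.6 and 40.8. In sample against untransfected cells SNHG16 had the other order, with ratios of 1.36 for the nested entries and 1.59 for the host. The differences between host and nested ratios were not tested.

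In sample against untransfected cells 3 of 32 tested nested entries were called higher and 0 lower with DESeq2 in the authors' deposited table, where 2.98% of 168 entries elsewhere were called. All 3, SNORD74, SNORD81 and SNORD47, lie in GAS5, which was not itself called in that comparison. The summed nested entries of GAS5 had 626 and 609 normalized reads in the untransfected pair, 1235 and 1131 in the mock pair, and 1123 and 935 in the sample pair. Unlike the host transcript, both sample libraries stood above the untransfected pair. The median over the tested nested entries was 0.54 as log2 values of the authors' deposited table, and 0.10 for entries elsewhere. Their median mean signals were 57.6 and 47.4 in the same order. By class the median log2 fold changes inside and elsewhere were 0.60 and 0.24 for box C/D and 0.38 and -0.04 for H/ACA entries. In sample against mock cells 0 nested entries, and 0.0% of those elsewhere, were called in the authors' deposited table.

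**Figure D4:**
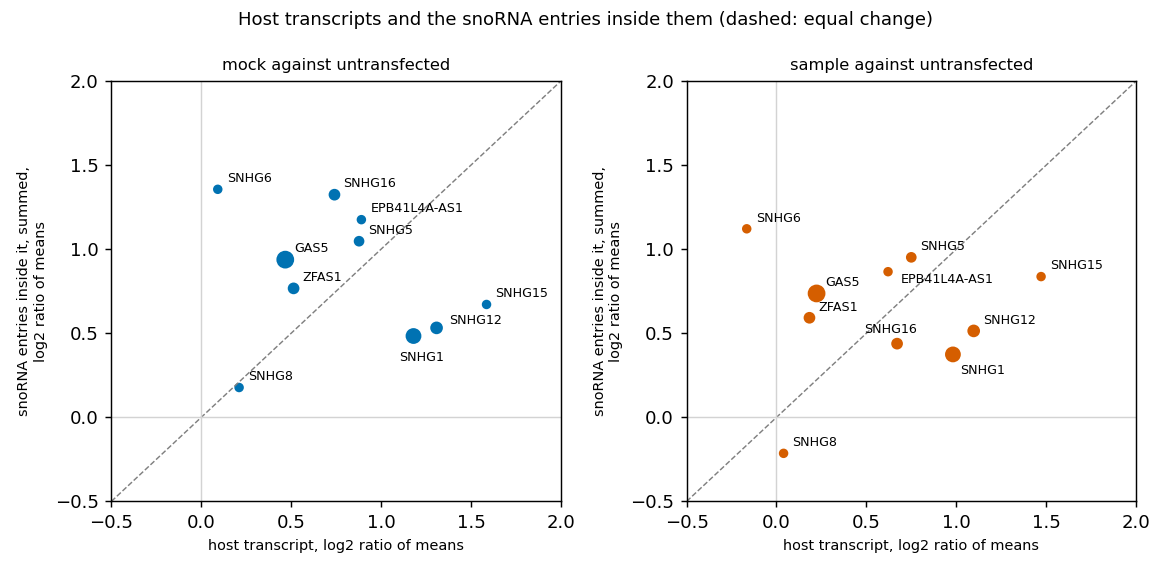
Log2 ratio of group means for each host transcript (x axis) and for the snoRNA entries inside it, summed (y axis); larger points hold more entries, and the dashed line marks equal change. In mock cells 6 hosts lie above the line, SNHG6 farthest, SNHG8 lies close to it, and SNHG1, SNHG12 and SNHG15 lie below it.

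Of the 10 hosts, 3 have the start of an oppositely oriented gene within 2000 bases. SLC3A2, which codes for the heavy chain of an amino acid transporter, starts 214 bases from SNHG1. It had 8202 and 8213 normalized reads in the untransfected pair, 18070.1 and 19710 in the mock pair, and 17178 and 16697 in the sample pair, so that it was high in the same libraries as SNHG1. Its log2 fold change in mock cells was 1.22 (adjusted p = 9.83e-68) in the authors' deposited table. ZNFX1, 248 bases from ZFAS1, rose by 0.66 in mock (adjusted p = 3.18e-18) and by 0.56 in sample cells in the authors' deposited tables, whereas ZFAS1 rose in mock cells alone at that threshold; the difference between these genes was not tested. ZBTB37, 95 bases from GAS5, stood at -0.17 (adjusted p = 0.445) in mock cells in the authors' deposited table.

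Over the 6 libraries the genes most like GAS5 were PPIL4, TRMT11, TBK1, CCNT2 and TGDS, none of them a snoRNA host. Likeness was the Euclidean distance between log2(normalized count + 1) values centred per gene, which ran from 0.132 for PPIL4 to 0.165 for TGDS, with a median of 0.861 over 11480 genes. PPIL4 had 925 and 836 normalized reads in the untransfected pair, 1228 and 1044 in the mock pair, and 1166 and 737 in the sample pair. Like GAS5 it was high in the mock pair and in sample library a and lowest in sample library b. Among the hosts ZFAS1 was nearest to GAS5 (0.247) and SNHG15 farthest (1.51). With 6 libraries these distances are a description.

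The counts of the gene lists that follow stand beside 27.5% of all genes called higher and 23.4% lower in mock cells, and 20.2% and 17.1% in sample cells, in the authors' deposited tables. Transcripts of genes for proteins that build snoRNA particles (snoRNPs) rose alongside the hosts. Of 18 tested, 17 were called higher and 1 lower in mock and 16 higher and 1 lower in sample cells with DESeq2 in the authors' deposited tables, with medians of 1.03 and 0.82. The largest log2 fold changes in mock cells were 1.61 for RRP9, the U3 snoRNA protein, 1.54 for GAR1 and 1.40 for NAF1, a core and an assembly protein of H/ACA particles, and 1.32 for the nucleolar chaperone NOLC1 in the authors' deposited table. RRP9 had 1709 and 1713 normalized reads in the untransfected pair, 4862 and 5511 in the mock pair, and 4755 and 4603 in the sample pair, with no overlap. Protein-coding snoRNA hosts had 21 of 24 higher and 0 lower in mock (median 0.64) and 17 higher in sample cells (median 0.49), among them the ribosome biogenesis genes PPAN (1.62 in mock), WDR43 (1.49) and GNL3 (1.24) in the authors' deposited tables. DKC1, the H/ACA pseudouridine synthase and itself a host, is in both lists and stood at 1.22 in mock cells in the authors' deposited table.

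Other noncoding snoRNA hosts went both ways. In mock cells 9 of 15 were called higher and 2 lower (median 0.38), and in sample cells 4 higher and 2 lower (median 0.35), with DESeq2 in the authors' deposited tables. In sample cells that is close to the 37.3% of all genes called. With limma on all libraries 9 were higher and 3 lower in sample cells, where 50.6% of all genes were called. The limma median in sample cells was 0.35 with all libraries and 0.42 without sample library b. Scaled by total counts 5 were higher and 3 lower in mock cells, and 4 higher and 3 lower in sample cells. In those fits 56.2% and 47.2% of all genes were called. SNHG17 rose (1.45 in mock, 1.43 in sample) and SNHG18 fell (-1.98 and -1.57), as log2 values of the authors' deposited tables. SNHG18 had 382 normalized reads in each untransfected library, 90.8 and 92.7 in the mock pair, and 113 and 132 in the sample pair. SNHG20 stood at 0.99 and SNHG11 at 0.75 in mock cells in the authors' deposited table.

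Messenger RNAs that share the pyrimidine start had smaller medians than the hosts, a difference that was not tested. Ribosomal protein genes had 40 higher and 2 lower of 76 in mock (median 0.23) and 9 higher and 2 lower in sample cells (median 0.07), and other TOP translation genes 11 and 1 of 18 (median 0.23) and 4 and 2 (median 0.08), with DESeq2 in the authors' deposited tables. In sample cells the 11 of 76 ribosomal protein genes called lie below the 37.3% of all genes. These counts depended on the scaling. Scaled by total counts, limma gave ribosomal protein genes 13 higher and 6 lower in mock and 1 higher and 11 lower in sample cells (median -0.03). In those fits 21.8% of all genes were higher and 34.4% lower in mock cells. In sample cells 2719 of 14910 genes were higher and 4317 lower. Ribosomal protein genes were thus called less often than all genes in either direction, and their lower calls do not set them apart. The other TOP genes had 7 higher with limma in mock cells, and 4 higher and 4 lower scaled by total counts. NPM1, a nucleolar protein gene, had the largest log2 fold change of the second list, 0.81 in mock cells, in the authors' deposited table. RPL9 had the largest of the first, 1.19, though ribosomal protein genes have pseudogenes that can share their reads.

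Factors of nonsense-mediated decay had 9 higher and 0 lower of 14 in mock (median 0.32) and 5 higher in sample cells (median 0.32) with DESeq2 in the authors' deposited tables, the latter close to the 37.3% of all genes called. With limma on all libraries 6 were higher and 0 lower in mock cells, where 59.0% of all genes were called, 29.7% as higher. In sample cells limma gave 7 higher and 0 lower, where 50.6% of all genes were called, 25.6% as higher. Scaled by total counts 5 were higher in sample cells, where 47.2% of all genes were called. EIF4A3 and MAGOH of the exon junction complex stood at 0.77 and 0.65, and SMG5 and UPF1 at 0.71 and 0.54, as log2 values for mock cells of the authors' deposited table. Coding transcripts known as targets of the pathway had 7 higher and 1 lower of 9 in mock (median 0.69) and 6 and 1 in sample cells (median 0.44) in the authors' deposited tables. GADD45A, a growth arrest gene, had 597 and 537 normalized reads in the untransfected pair, 3097 and 2955 in the mock pair, and 3326 and 2396 in the sample pair. UPP1 (1.48) and ATF3 (1.11) rose and GADD45B (-0.81) fell in mock cells in the authors' deposited table. SMG5 is in both lists.

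**Figure D5:**
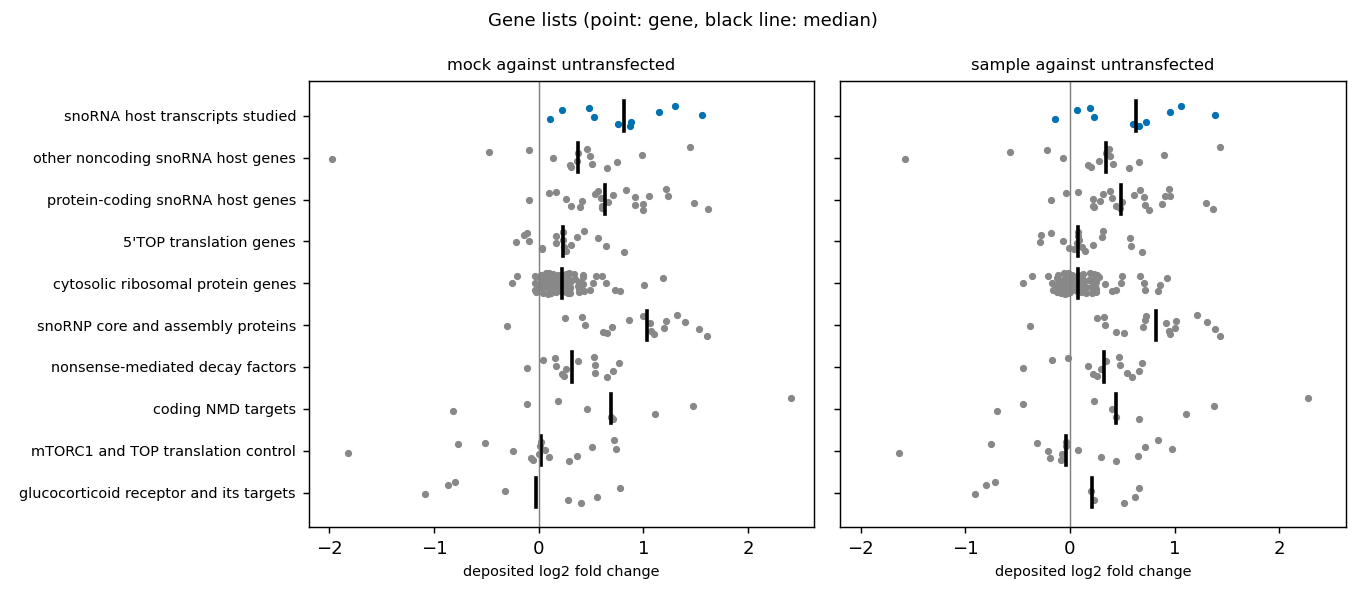
Log2 fold changes (x axis) of the authors' deposited tables for the 10 hosts (blue) and 9 gene lists (grey), with the median of each as a black line; NMD is nonsense-mediated decay. The snoRNP list has medians of 1.03 and 0.82 and the hosts 0.81 and 0.63, while ribosomal protein genes lie near 0.23 and 0.07.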

How the data were processed

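The 6 libraries were grouped by the transfection in the labels. The submitters' processing notes name Bowtie, STAR, DESeq2 and hg38, while versions, annotation and counting are not stated there. The authors deposited 3 tables of 40029 transcript entries, each fitted on 4 libraries. The columns, per the file headers, are a mean signal (counts over size factors), a log2 fold change and its SE, and a Wald score. The authors also deposited a p-value and an adjusted p-value per entry. They hold no raw counts, so the DESeq2 test as the authors deposited it, at an adjusted p under 0.05, is the main one, and edgeR was not run. Symbols were matched for 39720 entries (99.2%), and the 309 others held 0.0841% of reads.

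Whole counts of each library were solved from the deposited mean signal by lattice reduction, which met all 3 tables to a relative 1e-14 for 30527 of 30527 entries with reads, and for 29903 of 29903 simulated ones. Limma-voom (limma 3.58.1, R 4.3.3) was run on these counts as an alternative, for genes with a mean of at least 10, with median-of-ratios sizes and Benjamini-Hochberg adjustment. In data simulated for mock against untransfected cells (14887 genes) it called 89% of genes with a true ratio of 2 and 89.4% with 0.5. The shares were 88% and 85.3% for sample against untransfected (14902 genes) and 88% and 88% for sample against mock cells (14876 genes). The simulated counts had the same spread in every group, and 100 genes were raised and 100 lowered in each comparison. In the data the SD of log2(b/a) was 0.37 in the sample pair, 0.18 in the mock pair and 0.15 in the untransfected pair. The shares for sample cells were thus not obtained at the spread of the real sample pair. Promoters and snoRNAs came from RefSeq GRCh38.p14 and GENCODE 29.

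The members and the 9 lists were chosen with earlier results of these data known. Members are not counted in the lists. Named genes were all members, up to 4 called genes per list with the largest change at a mean of at least 50 (where none was called, the 2 most abundant), the 5 genes most like GAS5, and opposite-strand neighbours within 2000 bases. SNORD and SNORA entries and the cell type markers fall outside that rule and were named after their values were seen. Python 3.11.15, numpy 2.4.6, pandas 2.3.3 and mpmath 1.4.1 were used.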

Additional observations from a re-analysis of the deposited data

How the results depend on the processing

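With 1 library left out at a time, limma called 6 to 7 members in mock against untransfected cells, 5 to 8 in sample against untransfected and 0 to 3 in sample against mock. The 8 came without sample library b, and the 3, all lower, without sample library a. With all 6 libraries limma called 8, 6 and 0 members. The share of all genes called is not given here for the fits without an untransfected or a mock library. The member counts of those fits therefore have no share of all genes to stand beside. Scaling by total counts moved the median of all genes by -0.13 in mock and -0.11 in sample cells against untransfected ones, and 6, 6 and 0 members were then called. In that fit 21.8% of all genes were higher and 34.4% lower in mock cells, beside 29.7% and 29.2% with median-of-ratios sizes. The other thresholds, filters, centring and summed entries left every count of members within 1.5 times its main value. Over all alternatives no member called in the authors' deposited tables changed sign. Some values not called there did, depending on the scaling or on which mock or sample library was left out. SNHG6 in mock against untransfected cells went from 0.11 in the authors' deposited table to -0.05 with limma scaled by total counts. In sample against mock cells, GAS5, SNHG1 and SNHG5 were below 0 there and at 0.01, 0.05 and 0.05 without mock library a. EPB41L4A-AS1, called in sample against untransfected cells by limma alone, did not change sign in that comparison, at 0.43 without sample library a and 0.79 without b. Without sample library a and without b, the log2 fold changes against untransfected cells were -0.19 and 0.54 for GAS5, -0.23 and 0.50 for ZFAS1 and -0.41 and 0.04 for SNHG6, and GAS5 against mock cells was -0.64 and 0.08. No paired analysis was possible because the recovered libraries carry no replicate number. The unshrunk ratio of means was an alternative added after seeing the data. With 2 libraries a group, limma had 3 residual degrees of freedom, and the depth of sample library b limits every value of sample cells.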

Other observations

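Lists tied to other known ties of these hosts went both ways. Of 16 genes of mTORC1 and TOP translation control, 5 were called higher and 3 lower in mock cells (median 0.02) and 5 higher and 2 lower in sample cells (median -0.04) with DESeq2 in the authors' deposited tables, where 50.9% and 37.3% of all genes were called. Scaled by total counts, limma gave 3 higher and 4 lower in either comparison, with medians of -0.14 and -0.19. DDIT4, an inhibitor of mTORC1, had 2327 and 2551 normalized reads in the untransfected pair, 671 and 683 in the mock pair, and 713 and 852 in the sample pair. SESN1, also an inhibitor, fell by 0.77 in mock cells, while LARP1, which binds TOP messenger RNAs, rose by 0.74 and RPTOR, the mTORC1 scaffold, by 0.72, as log2 values of the authors' deposited table.

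Among 8 tested genes of the glucocorticoid receptor and its targets, 4 were called higher and 3 lower in mock cells and 3 higher and 3 lower in sample cells with DESeq2 in the authors' deposited tables, beside the same 50.9% and 37.3% of all genes. TSC22D3 (-1.09), KLF9 (-0.86) and GLUL (-0.80) fell and SGK1 (0.78) and FKBP5 (0.56) rose in mock cells in the authors' deposited table. The receptor gene NR3C1 stood at 0.28 in the same table.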
